A study of Rattus norvegicus with 6 samples.

Results

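The genes described here are 43 genes of S phase and DNA replication, chosen by symbol from textbook roles in copying the genome and grouped by role. The choice was made with earlier results of these data known. Of these, 42 were found among the 23091 genes of the deposited table, and all 42 passed the filter on low counts that left 12623 genes for testing. E2f1, the activator transcription factor of the G1/S switch, is not analysed here. Messenger RNA was sequenced from rat mesenchymal stem cells of the marrow, of wild-type genotype in both groups, after 7 days in a medium for neural differentiation. CYSP, an agent whose full name is not given, was added to the medium of 3 samples, and the 3 CK samples had the solvent DMSO in the same medium. The comparison asks which genes the agent moves in this medium. Whether the 3 samples of a group came from separate cultures or animals is not stated, so p-values measure the spread among these samples alone, and that spread may be technical.

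A cell copies its DNA once per cycle. Origins are licensed in G1, when ORC, Cdc6 and Cdt1 load the ring-shaped MCM helicase onto DNA. In S phase Cdc45 and the GINS complex switch that helicase on, polymerase alpha-primase lays primers, polymerases delta and epsilon extend them, and the RFC clamp loader places the sliding clamp PCNA. Many of these genes are switched on together at the G1/S border by E2F transcription factors and are low in resting or terminally differentiated cells such as neurons.

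Most replication genes were lower in CYSP, by modest amounts, and the fall was uneven between roles. In the quasi-likelihood test of edgeR, with p-values adjusted by Benjamini-Hochberg over all tested genes, 29 of the 42 members fell at an adjusted p under 0.05, against a background of 37.8% of all tested genes, and 4 rose, against a background of 38.2%. As a share, 69.0% of the members fell and 9.52% rose. The median log2 fold change of the members, CYSP over CK, was -0.46, and that of all tested genes was 0.0046. Falls of at least 1 on the log2 scale were seen for 6 members (Orc1, Mcm7, Mcm10, Gins1, Tk1 and Uhrf1), against a background of 12.7% of tested genes, and rises of that size for Rpa1 and Ccne1, against 15.2%. All 3 CYSP samples lay below all 3 CK samples for 29 members, where 38.2% of tested genes did so, and above them for 6 members, where 38.8% did. Among the clamp loading and lagging strand genes 3 of 10 fell (30.0%, near the 37.8% of all tested genes), 2 rose and 5 did not pass the test. Outside that role 26 of 32 fell (81.2%), 2 rose and 4 did not pass the test. This split by role is a description, and the difference between roles was not tested.

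**Figure D1:**
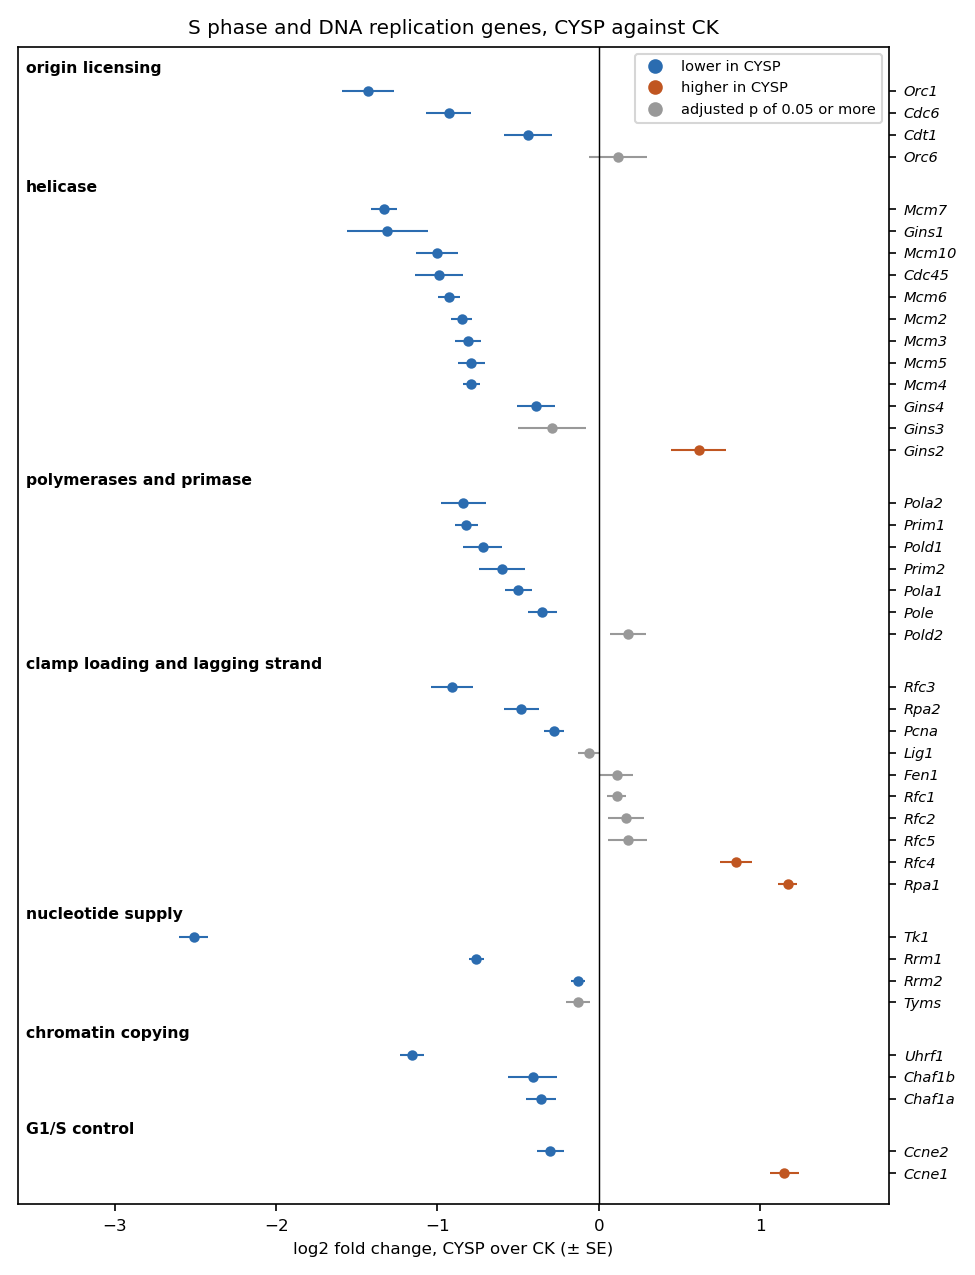
Each point is the log2 fold change of 1 gene, CYSP over CK, with its SE, from 3 samples per group, grouped by role and coloured by the test at an adjusted p of 0.05. Most points lie left of 0, Tk1 lies farthest left at -2.51, and Rpa1 farthest right at 1.17.

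The summed level of the 42 genes, in TMM-scaled CPM, a gene's counts relative to library size, was 956, 949 and 942 CPM in the CYSP samples and 1212, 1258 and 1241 CPM in the CK samples. The sums of the groups did not overlap, and every replication gene was detected in every sample. The lowest value was 20 counts, for Gins1 in CYSP replicate 2. In these bulk samples fewer cells in S phase and less replication RNA per cell cannot be told apart. Total counts were 15060933 to 17244700 per sample. All 10 marrow stromal markers were detected, of which 7 were higher and 3 lower in CYSP, against 38.2% and 37.8% of all tested genes. Their summed level went the other way, at 36494 to 37683 CPM in the CYSP samples and 61605 to 63682 CPM in the CK samples. Most of that sum came from Col1a1 and Col3a1, of which Col1a1 was lower and Col3a1 higher in CYSP. Of 8 neuronal markers 4 passed the filter, of which Snap25 and Tubb3 were higher and Map2 and Dcx lower in CYSP, and Rbfox3 had no count in any sample. The neuronal list summed to 85.8 to 91.1 CPM in the CYSP samples and 14.6 to 15.1 CPM in the CK samples, mostly from Snap25 and Tubb3. Of 14 macrophage and leukocyte markers 11 were lower in CYSP (78.6%, against 37.8% of all tested genes), none was higher and none was at 0 counts. That marker list summed to 602 to 605 CPM in the CYSP samples and 1870 to 2113 CPM in the CK samples. The part of any of these lists in the replication result was not tested.

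Promoter windows from RefSeq (GRCr8), 250 bases before to 50 after the annotated start, were searched on both strands for an E2F motif (TTTCCCGC, TTTGGCGC, TTTCGCGC or TTTGCCGC), a CHR element (TTTGAA or TTCGAA) and a CCAAT box (CCAAT). A window was found for 35 members. Orc1, Cdc6, Mcm4, Gins4, Rrm2, Ccne2 and E2f1 had no entry, and Uhrf1 had several and was left out. An E2F motif stood in 14 of the 35 windows (40.0%), against 4.24% of the 9041 windows of tested genes. By the direction of the gene, 11 of 22 windows of members that fell held one, 0 of 4 of members that rose, and 3 of 9 of members with no call. All 5 windows of MCM ring subunits held it, and outside these 6 of 17 windows of members that fell did. A CCAAT box stood in 22 of the 35 member windows (62.9%), against 37.9% of the windows of tested genes. It stood in 16 of 22 windows of members that fell (72.7%), 2 of 4 that rose and 4 of 9 without a call. A CHR element stood in 5 of the 35 member windows (14.3%), against 13.5% of the windows of tested genes. Of these 5, 4 were among the 22 windows of members that fell (18.2%), 0 among the 4 that rose and 1 among the 9 without a call. Of the 23 E2F matches in member windows, 8 overlapped another E2F match and 1 overlapped a CCAAT or CHR match. A match is a description of the letters, and no match says only that these letters are not in this window.

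The following windows are of some of the genes that moved most or moved apart within 1 complex. They were chosen after the values were seen. Gins1 and Gins2, which also moved apart, and Ccne1, which rose more than Rfc4, are not shown. Mcm7 fell most within the MCM ring. Rfc3 fell and Rfc4 rose within the clamp loader, Rpa2 fell and Rpa1 rose within the RPA complex, and Tk1 fell most of all. Capitals mark the E2F matches, which are absent from the windows of Rfc4, Rpa1 and Tk1.
Mcm7, GRCr8 chr12:22163129-22163428, minus strand: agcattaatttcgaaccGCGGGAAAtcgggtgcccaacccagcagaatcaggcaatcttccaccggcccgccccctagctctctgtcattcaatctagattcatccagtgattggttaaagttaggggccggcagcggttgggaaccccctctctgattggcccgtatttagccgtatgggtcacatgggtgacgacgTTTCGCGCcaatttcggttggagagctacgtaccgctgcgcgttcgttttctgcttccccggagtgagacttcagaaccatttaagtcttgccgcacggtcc
Rfc3, GRCr8 chr12:5836318-5836617, plus strand: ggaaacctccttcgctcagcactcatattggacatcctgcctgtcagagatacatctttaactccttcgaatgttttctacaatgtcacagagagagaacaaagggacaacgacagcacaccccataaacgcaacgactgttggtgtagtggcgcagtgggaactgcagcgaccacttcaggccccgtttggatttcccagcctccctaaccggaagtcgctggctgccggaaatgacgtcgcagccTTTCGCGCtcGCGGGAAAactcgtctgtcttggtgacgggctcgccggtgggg
Rfc4, GRCr8 chr11:91254023-91254322, plus strand: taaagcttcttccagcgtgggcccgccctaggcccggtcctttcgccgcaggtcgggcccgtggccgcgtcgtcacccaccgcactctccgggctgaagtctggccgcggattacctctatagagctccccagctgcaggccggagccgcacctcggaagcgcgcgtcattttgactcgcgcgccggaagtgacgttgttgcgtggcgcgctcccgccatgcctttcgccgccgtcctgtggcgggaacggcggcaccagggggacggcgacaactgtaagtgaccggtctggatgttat
Rpa2, GRCr8 chr5:150260522-150260821, plus strand: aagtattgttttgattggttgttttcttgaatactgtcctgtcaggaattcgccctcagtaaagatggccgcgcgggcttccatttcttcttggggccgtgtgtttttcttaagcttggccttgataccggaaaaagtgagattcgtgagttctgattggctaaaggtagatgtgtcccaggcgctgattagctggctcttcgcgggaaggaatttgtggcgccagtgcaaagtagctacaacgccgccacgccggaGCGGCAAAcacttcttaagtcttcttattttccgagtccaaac
Rpa1, GRCr8 chr10:60698230-60698529, minus strand: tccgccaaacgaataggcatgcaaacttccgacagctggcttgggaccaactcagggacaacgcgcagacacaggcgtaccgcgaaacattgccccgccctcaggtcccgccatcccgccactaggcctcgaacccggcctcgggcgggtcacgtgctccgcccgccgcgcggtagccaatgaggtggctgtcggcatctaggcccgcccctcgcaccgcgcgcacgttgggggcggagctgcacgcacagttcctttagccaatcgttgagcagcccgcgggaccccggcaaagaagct
Tk1, GRCr8 chr10:103544728-103545027, minus strand: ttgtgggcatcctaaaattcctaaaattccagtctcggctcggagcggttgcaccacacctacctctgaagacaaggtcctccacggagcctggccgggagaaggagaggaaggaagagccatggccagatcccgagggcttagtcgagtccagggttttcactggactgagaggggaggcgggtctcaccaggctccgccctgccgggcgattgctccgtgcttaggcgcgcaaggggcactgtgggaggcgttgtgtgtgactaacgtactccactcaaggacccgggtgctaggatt

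Origin licensing genes fell in 3 of 4 cases, where 37.8% of all tested genes fell. Orc1, the largest subunit of the origin recognition complex, had 3.77, 3.38 and 3.55 CPM in the CYSP samples and 9.99, 9.36 and 9.48 CPM in the CK samples. The groups were far apart, and Orc1 fell by 1.43 on the log2 scale (SE 0.16, edgeR adjusted p = 1.46e-12). Cdc6, which helps ORC load the helicase, averaged 6.03 ± 0.58 CPM in CYSP and 11.5 ± 0.49 CPM in CK (SD, n = 3 each), a log2 fold change of -0.93. Cdt1, its loading partner, averaged 6.67 ± 0.424 CPM in CYSP and 9.05 ± 1.16 CPM in CK, a log2 fold change of -0.44 (edgeR adjusted p = 0.00545). The Cdt1 call was lost without CK replicate 3 (edgeR adjusted p = 0.0593), and its adjusted p lay between 0.000982 and 0.696 over 19 alternative settings. The 0.696 came from glmTreat, a test against a log2 fold change of 0.5. Here and below, the settings include that test and assumed coefficients of variation of 0.2 and 0.4, so a range mixes unlike tests. Orc6, a small ORC subunit, had 5.71, 4.87 and 6.14 CPM in CYSP and 5.08, 5.09 and 5.19 CPM in CK, and the groups overlapped (log2 fold change 0.12, SE 0.18, edgeR adjusted p = 0.529).

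The 6 subunits of the MCM ring fell together. Their log2 fold changes ran from -1.33 for Mcm7 to -0.79 for Mcm4 and Mcm5, with a median of -0.83. Mcm7 had 18.6, 16.6 and 15.8 CPM in the CYSP samples and 41.7, 44.2 and 42.4 CPM in the CK samples, so that every CYSP sample was far below every CK sample (SE 0.079, edgeR adjusted p = 5.68e-26). The other 5 lay close to each other, with Mcm6 at -0.93, Mcm2 at -0.85 and Mcm3 at -0.81. On the FPKM scale, which divides by transcript length and so allows levels of different genes to be compared, Mcm4 was the most abundant and Mcm5 the least abundant of the 6 in both groups, with a ratio of 2.19 between them in CYSP and 2.2 in CK.

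The factors that activate the helicase were less uniform. Mcm10, which joins the helicase as it fires, averaged 7.18 ± 0.747 CPM in CYSP and 14.4 ± 1.76 CPM in CK, and Cdc45, a helicase cofactor, averaged 5.02 ± 0.719 CPM in CYSP and 10 ± 0.399 CPM in CK (edgeR adjusted p = 8.86e-11 for Mcm10, log2 fold change -0.99 for Cdc45). The 4 GINS subunits, which form one complex, went different ways. Gins1 fell, with 2.13, 1.35 and 1.43 CPM in CYSP and 4.23, 4.27 and 3.8 CPM in CK (log2 fold change -1.31, SE 0.25, edgeR adjusted p = 3.56e-06), and Gins4 fell less, by 0.39 on the log2 scale. Gins2 rose, with 7.77, 9.87 and 6.21 CPM in CYSP and 3.95, 6.03 and 5.56 CPM in CK. Its groups nearly touched (log2 fold change 0.62, SE 0.17, edgeR adjusted p = 7.58e-04). With limma the call was lost on the log2(FPKM + 1) scale (adjusted p = 0.0503) and also on the log2(FPKM + 0.1) scale. Its adjusted p ranged from 0.000121 to 0.46 over 19 alternative settings. Gins3 had 3.28, 3.38 and 3.89 CPM in CYSP and 3.33, 4.84 and 4.77 CPM in CK, with groups that overlapped and no call (edgeR adjusted p = 0.205).

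**Figure D2:**
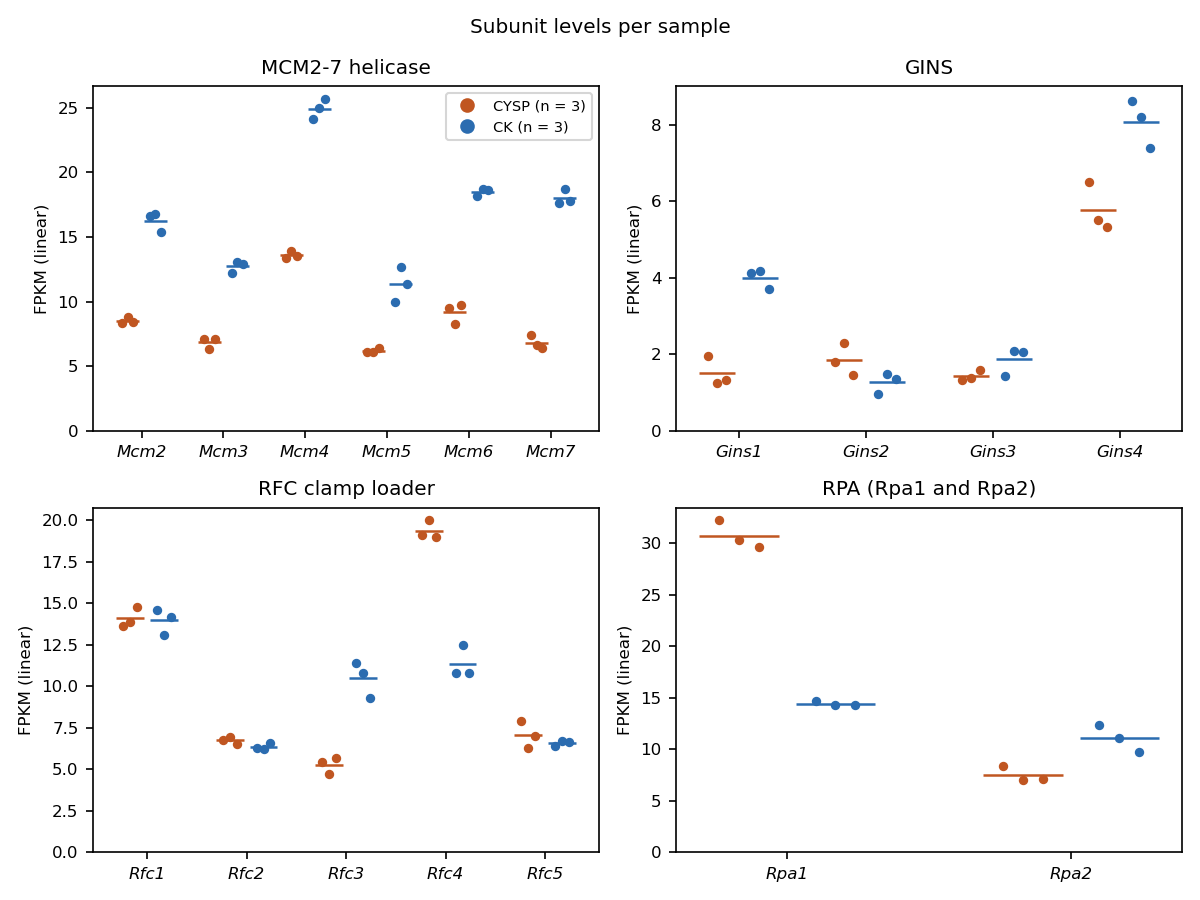
FPKM of each subunit in each of the 3 CYSP and 3 CK samples, as deposited, with a line at the group mean, for the MCM ring, GINS, the RFC clamp loader and 2 RPA subunits. All MCM subunits are lower in CYSP. Rfc4 and Rpa1 are higher in every CYSP sample, while Rfc3 and Rpa2 of the same complexes are lower. Gins1 is lower in every CYSP sample. The mean of Gins2 is higher in CYSP, but its samples overlap on this scale (1.45 FPKM in CYSP replicate 3, 1.49 FPKM in CK replicate 2).

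Of the 7 polymerase and primase genes 6 fell and 1 did not pass the test, where 37.8% of all tested genes fell. Within polymerase alpha-primase, the enzyme that starts new strands, the log2 fold changes were -0.84 for Pola2, -0.82 for Prim1, -0.60 for Prim2 and -0.50 for Pola1, a range of 0.34, against 0.54 in the MCM ring, 1.93 in GINS and 1.75 in RFC. Pola2, its accessory subunit, had 5.95, 5.81 and 6.76 CPM in CYSP and 10.3, 12.2 and 10.7 CPM in CK, with no overlap (SE 0.14, edgeR adjusted p = 1.50e-07). Pold1 and Pole, the catalytic subunits of polymerases delta and epsilon, fell by 0.72 and 0.35 on the log2 scale. Pold2, an accessory subunit of polymerase delta, had 15.4, 13.4 and 14.2 CPM in CYSP and 12.5, 12.2 and 13.2 CPM in CK. Its CYSP samples all lay slightly above its CK samples, but it did not pass the test (log2 fold change 0.18, SE 0.11, edgeR adjusted p = 0.126).

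The clamp loading and lagging strand genes had a median log2 fold change of 0.11, and their summed level was 312, 317 and 317 CPM in CYSP and 269, 267 and 272 CPM in CK. Rpa1, the large subunit of the RPA complex that coats exposed DNA strands in replication and repair, had 92.6, 86.2 and 84.5 CPM in CYSP and 39.7, 38.7 and 38.6 CPM in CK. It was the member with the highest fold change, 2.25-fold higher in CYSP (log2 fold change 1.17, SE 0.056, edgeR adjusted p = 5.88e-32). Without Rpa1 the other 9 genes of the role summed to 220, 231 and 233 CPM in CYSP and 230, 228 and 233 CPM in CK, and the groups overlapped. Rpa2, its middle-sized partner, fell, with 12.6, 10.5 and 10.7 CPM in CYSP and 17.5, 15.6 and 13.8 CPM in CK (log2 fold change -0.48, SE 0.11, edgeR adjusted p = 1.30e-04). The FPKM ratio of Rpa1 over Rpa2 was 3.86 to 4.33 in CYSP and 1.19 to 1.47 in CK.

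The 5 genes of the clamp loader also separated. Rfc4 rose, with 24, 24.9 and 23.7 CPM in CYSP and 12.8, 14.8 and 12.7 CPM in CK (log2 fold change 0.85, SE 0.1, edgeR adjusted p = 1.29e-12). Rfc3 fell, with 7.11, 6.15 and 7.37 CPM in CYSP and 14, 13.2 and 11.4 CPM in CK (log2 fold change -0.91, SE 0.13, edgeR adjusted p = 4.97e-09). Both gaps were wider than the spread within a group, and the FPKM ratio of Rfc4 over Rfc3 was 3.34 to 4.2 in CYSP and 0.948 to 1.16 in CK. Rfc1, the large subunit, had 55.3, 57.7 and 60.8 CPM in CYSP and 56.4, 50.2 and 54.8 CPM in CK. Rfc2 had 13.8, 14 and 13.2 CPM in CYSP and 12.1, 11.9 and 12.6 CPM in CK, and Rfc5 had 13.1, 11.9 and 13.3 CPM in CYSP and 11.6, 10.2 and 12 CPM in CK. None of these 3 passed the edgeR test (adjusted p = 0.0918 for Rfc1, 0.172 for Rfc2 and 0.152 for Rfc5), with log2 fold changes of 0.11, 0.17 and 0.18. Rfc1 passed without CYSP replicate 1 (adjusted p = 0.0447, range 0.0447 to 1 over 19 alternative settings).

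Pcna, the sliding clamp and a common label of proliferating cells, fell little. It had 40.9, 44 and 43.5 CPM in CYSP and 49.8, 50.7 and 55.8 CPM in CK, without overlap (log2 fold change -0.28, SE 0.062, edgeR adjusted p = 3.25e-05). Fen1, the nuclease that trims flaps between Okazaki fragments, had 15.7, 19.8 and 17.1 CPM in CYSP and 14.6, 15.6 and 18.5 CPM in CK. Lig1, the ligase that seals the fragments, had 37.5, 41.8 and 43.4 CPM in CYSP and 40.9, 45.7 and 41.4 CPM in CK. For both genes the groups overlapped and the test was not passed (edgeR adjusted p = 0.351 and 0.396), although Lig1 passed as lower when counts were scaled by library size only (adjusted p = 0.0433, range 0.0433 to 1 over 19 alternative settings).

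Nucleotide supply held the sharpest fall. Tk1, the thymidine kinase that salvages thymidine in S phase, had 8.69, 8.04 and 8.19 CPM in the CYSP samples and 46.9, 48.6 and 46.7 CPM in the CK samples. The CK level was 5.69-fold higher (log2 fold change -2.51, SE 0.089, edgeR adjusted p = 2.94e-40). The symbol stands on a pair of gene identifiers, of which the other had 0 counts over the 6 samples, as was also the case for Cdc45. The enzymes of the other routes changed less. Rrm1, the large subunit of ribonucleotide reductase, averaged 71.8 ± 3.86 CPM in CYSP and 122 ± 2.99 CPM in CK (log2 fold change -0.76), while Rrm2, the small and in human and mouse cells cycle-regulated subunit, had 104, 103 and 102 CPM in CYSP and 108, 117 and 114 CPM in CK. The Rrm2 groups did not overlap but were close (log2 fold change -0.13, SE 0.044, edgeR adjusted p = 0.00661). The FPKM ratio of Rrm1 over Rrm2 was 0.568 to 0.618 in CYSP and 0.911 to 0.94 in CK. Tyms, which makes thymidylate, had 30.2, 34.5 and 31.4 CPM in CYSP and 35.5, 36.1 and 33.3 CPM in CK, with overlapping groups (log2 fold change -0.13, SE 0.073, edgeR adjusted p = 0.104). Tyms passed as lower in 4 alternatives. These were edgeR without CYSP replicate 2 (adjusted p = 0.0405), edgeR with scaling by library size only, and both limma fits on FPKM. Its adjusted p ranged from 0.0072 to 1 over 19 alternative settings.

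The 3 chromatin copying genes all fell, where 37.8% of all tested genes fell. Uhrf1, which brings the maintenance DNA methyltransferase to newly copied DNA, had 20.7, 22.7 and 19.7 CPM in CYSP and 45.9, 49 and 46.4 CPM in CK, far apart (log2 fold change -1.16, SE 0.074, edgeR adjusted p = 1.59e-24). Chaf1a and Chaf1b, subunits of the factor that places new histones behind the fork, fell less. Chaf1a had 18.6, 19.3 and 16.1 CPM in CYSP and 23.7, 21.6 and 24.2 CPM in CK (log2 fold change -0.36, SE 0.093, edgeR adjusted p = 3.52e-04). Chaf1b had a log2 fold change of -0.41, and its call was lost without CYSP replicate 2 (adjusted p = 0.107) and with DESeq2 (adjusted p = 0.0553), within a range of 0.0031 to 0.778 over 19 alternative settings.

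The E cyclins, which activate Cdk2 at the G1/S border, parted. Ccne1 had 33.3, 31 and 33.2 CPM in CYSP and 13.9, 14.6 and 15.5 CPM in CK, so that it was higher in every CYSP sample (log2 fold change 1.15, SE 0.088, edgeR adjusted p = 2.89e-20). Ccne2 had 20.5, 23.4 and 21.4 CPM in CYSP and 25.8, 26.1 and 28.2 CPM in CK, lower in every CYSP sample but by little (log2 fold change -0.30, SE 0.085, edgeR adjusted p = 0.00129). The FPKM ratio of Ccne1 over Ccne2 was 2.06 to 2.5 in CYSP and 0.828 to 0.863 in CK. All of these ratios were chosen after the values were seen and carry no test.

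**Figure D3:**
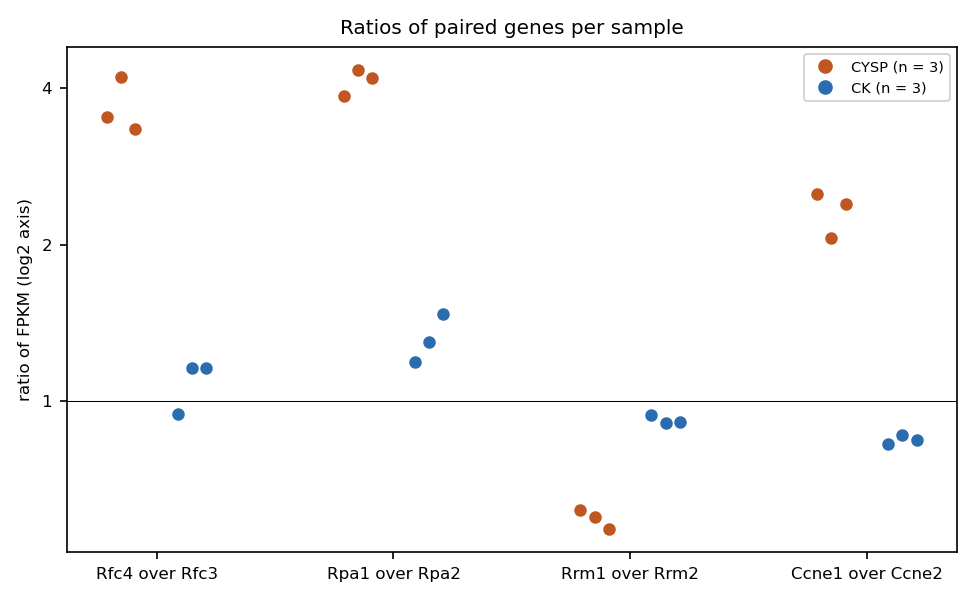
Ratio of deposited FPKM between paired genes in each sample, on a log2 axis, for 3 CYSP and 3 CK samples. Rfc4 over Rfc3, Rpa1 over Rpa2 and Ccne1 over Ccne2 are higher in every CYSP sample, and Rrm1 over Rrm2 is lower in every CYSP sample.

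Of 40 other replication genes 23 fell, 5 rose and 12 did not pass the test. These are 57.5% lower and 12.5% higher, against 37.8% and 38.2% of all tested genes. Their median log2 fold change was -0.24. The lowest were Recql4, a helicase needed for origin firing, at -1.51 and Dscc1, a subunit of an alternative clamp loader, at -1.34. Among those that rose were Pole3, a histone-fold subunit of polymerase epsilon, at 0.76, and Gmnn, the Cdt1 inhibitor geminin, at 0.64, with 12.6 ± 0.841 CPM in CYSP and 8.05 ± 0.345 CPM in CK (SD, n = 3 each). The symbol Pole3 stands on more than 1 gene identifier, and reads may be split between them. In the deposited KEGG annotation 23 of the 42 members belong to the DNA replication pathway, of which 15 fell and 2 rose. Of the 13 tested identifiers of that pathway that are not members, 6 fell (46.2%) and 3 rose (23.1%). A pair of those that rose carries the symbol Pole3. Several of these genes, Pole2 and Pole3 included, are also among the 40 above, so the lists are not separate. With so few identifiers the share that fell is near the 37.8% of all tested genes. Among the 13 were Pole2, a polymerase epsilon subunit, at -0.69 and Rnaseh2c, a subunit of the nuclease that removes RNA from DNA, at 0.69 with overlapping groups.

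Of 31 G1/S regulators outside the member list 13 fell (41.9%) and 9 rose (29.0%), shares near the 37.8% and 38.2% of all tested genes. Ccna2, the S phase cyclin A, averaged 19.6 ± 0.9 CPM in CYSP and 74.6 ± 2.45 CPM in CK (log2 fold change -1.93), and Fbxo5, an inhibitor of the anaphase-promoting complex, had a log2 fold change of -1.75. Ccnd1, the G1 cyclin D1, averaged 53.5 ± 2 CPM in CYSP and 5.23 ± 0.212 CPM in CK (log2 fold change 3.35), and Cdkn1a, the CDK inhibitor p21, had a log2 fold change of 2.01. Of 20 G2/M genes 19 fell and none rose, against 37.8% and 38.2% of all tested genes. All 19 fell by at least 1 on the log2 scale, as did 12.7% of all tested genes. The median of the 20 was -1.68. Cdc20 and Ube2c, an activator and a conjugating enzyme of the anaphase-promoting complex, fell by 2.93 and 2.46 on the log2 scale. The symbol Ube2c stands on more than 1 gene identifier. Mki67, the Ki-67 antigen, and Top2a, topoisomerase II alpha, had -1.54 and -1.11. The difference between these lists and the replication genes was not tested.

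**Figure D4:**
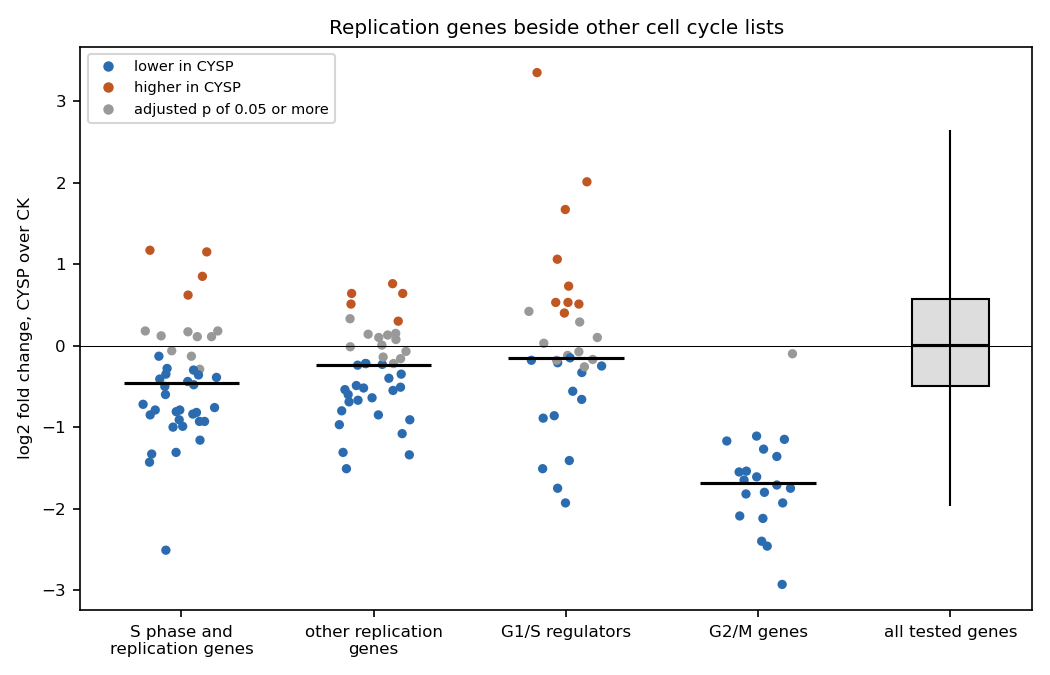
Log2 fold change, CYSP over CK, of each tested gene in 4 lists, coloured by the test at an adjusted p of 0.05 with a line at the median, beside all 12623 tested genes (box for the quartiles, line for the central 90%). The medians are -0.46 for the S phase and replication genes, -0.24 for the other replication genes, -0.15 for the G1/S regulators and -1.68 for the G2/M genes.

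In the authors' deposited table, at an adjusted p under 0.05, 30 members were lower and 3 were higher in CYSP, and for 40 of the 42 members the call was the same as that of edgeR. The differing genes were Gins2, with an adjusted p of 0.0603 in the authors' deposited table, and Tyms, lower there with an adjusted p of 0.031. The authors' log2 fold change minus that of edgeR had a median of -0.083 over all tested genes, a shift toward lower in CYSP. The share of all genes called in the authors' deposited table was not counted, so these member counts have no background beside them.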

How the data were processed

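RNA of 3 CYSP and 3 CK samples was isolated with Trizol and enriched on oligo(dT) beads, per the labels' protocols. The submitters' processing notes name the tools fastp 0.18.0, HISAT2, StringTie 1.3.1 and RSEM without saying what each did. The genome build, the counting tool and any use of strand in counting: not given in the sources used here. For each gene the authors deposited a raw count in every sample. The authors also deposited FPKM, a value per kilobase and depth. The authors' deposited log2 fold change equals the log2 ratio of their group mean FPKM, and the test behind the authors' p-value is not stated.

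Members were matched by symbol, taking the identifier with the most counts. The members and all lists were chosen with earlier results of these data known. Genes were tested with edgeR 4.0.16 in R 4.3.3 (filterByExpr, TMM, robust quasi-likelihood F test) on all 6 samples, with Benjamini-Hochberg adjustment over 12623 genes. Each SE was derived as the absolute log2 fold change over the square root of F. The common biological coefficient of variation was 0.0393. On simulated counts the procedure recovered 33.3% of 1.2-fold changes and 91.8% of 1.5-fold changes, so small changes can be missed. Far fewer genes were changed there than were called here, so the simulation does not probe the scaling. Values were named by rule: in each role the genes with the lowest and highest log2 fold change, every gene that rose and every gene with no call. In other lists the rule took the 2 lowest and 2 highest called genes, and always Mki67, Top2a, Ccna2, Cdkn1a and Ccnd1. Genes of the KEGG list that are named were chosen after their values were seen. Alternatives were other scalings and filters, DESeq2 1.42.0, limma 3.58.1 on counts (voom) and on FPKM, samples left out, the replicate block, a threshold on size and an assumed coefficient of variation.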

Additional observations from a re-analysis of the deposited data

How the results depend on the processing

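No called member changed sign in any of the 20 alternatives. In the 16 that kept the threshold and estimated the spread from the samples, 30 of 33 called members kept their call, 3 lost it in at least 1 (Cdt1, Gins2 and Chaf1b) and 3 uncalled members gained one (Rfc1, Lig1 and Tyms). Leaving out each sample in turn gave 28 to 29 lower and 4 to 5 higher members. Stricter calls moved the counts. Against a log2 fold change of 0.5 (glmTreat) 18 members were lower and 3 higher, with 2478 of all genes lower and 2753 higher. With a log2 fold change of at least 1, 6 members were lower and 2 higher, with 1598 and 1917 of all genes. With an assumed coefficient of variation of 0.2, 19 members were lower and 4 higher, with 2801 of all genes lower and 3102 higher. With 0.4, 4 members were lower (Orc1, Mcm7, Gins1 and Tk1) and 0 higher, with 1209 and 1496 of all genes. The spread estimated from these samples was 0.0393 as a coefficient of variation, and whether it holds for separate cultures was not tested. With the replicate number as a block 29 members were lower and 4 higher. The numbers pair nothing in the labels, and same-numbered samples correlated at -0.000633, 0.0185 and -0.00885 in their deviations from the group means. Low counts limit Gins1, which had the fewest.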
